A study of Mus musculus with 8 samples.

Results

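The lysosomal cathepsins are the proteases that degrade protein inside the lysosome. The 10 genes described here are Ctsa, Ctsb, Ctsc, Ctsd, Ctsh, Ctsk, Ctsl, Ctso, Ctss and Ctsz, taken by gene symbol from the array's probes. They carried 15 probes, all 15 probes passed the filter on dim signal, and the 10 genes stand among 22922 targets tested on the arrays. A target is a gene with a symbol (14859) or a probe without one (8063).

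Expression was measured with 1-colour (Cy3) arrays in mouse embryonic fibroblasts (MEFs), which are fibroblasts grown from mouse embryos. A WT line and a Keap1 null (Keap1-/-) line, both marked TR in the labels without a definition, were each profiled from culture dishes and from the tumours they formed as allografts in nude (nu/nu) mice, with 2 arrays in each of the 4 groups. The allografts came from 10000000 injected WT cells or 3000000 injected Keap1 null cells and were harvested at 100 to 150 mm3. Each genotype was 1 line as far as the labels say, so genotype and line cannot be told apart, and the allografts differed in the number of cells injected as well. A tumour holds host cells beside the injected ones, and on bulk RNA fewer cells of a type and less RNA per cell cannot be told apart. The labels do not say whether replicates 1 and 2 came from separate cultures or animals, so p-values measure only the spread between these arrays, which may be technical.

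Cathepsins are made as inactive precursors, tagged with mannose 6-phosphate, carried to the lysosome and activated there by cleavage at low pH. Most are cysteine proteases, while Ctsd encodes an aspartic protease and Ctsa a serine carboxypeptidase. Fibroblasts use Ctsb, Ctsd and Ctsl for bulk protein turnover, macrophages and other antigen-presenting cells are rich in Ctss, and osteoclasts secrete the product of Ctsk to dissolve bone collagen. Keap1 is an adaptor that sends NRF2, the transcription factor made from Nfe2l2, to be degraded.

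Levels are given as log2 of the scanner's processed intensity minus log2 of the 75th percentile of the same array, so that 0 is the brightness of a probe at that percentile. Signal was well above background for 60.6% to 64.5% of probes in dishes and for 69.7% to 74.7% in allografts, and no spot was saturated. The Keap1 level itself was 3.32 and 2.99 (WT) and 2.37 and 2.22 (null) in dishes, and 2.85 and 2.46 (WT) and 1.00 and 0.92 (null) in allografts. It was lower in the null line in both growths (log2 fold change -0.86 in dishes, limma adjusted p = 0.0197, and -1.69 in allografts, adjusted p = 0.000722). The sources used here do not give the place of its probe relative to the deletion, so this reading does not by itself check the labels. All 10 fibroblast markers (Col1a1, Col1a2, Col3a1, Vim, Thy1, Pdgfra, Pdgfrb, S100a4, Fn1 and Dcn) were well above background in all 4 groups.

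The 10 cathepsins fell into a set that changed by large factors with growth as a tumour and a set with smaller changes. Ctss, Ctsc, Ctso and Ctsk rose in the allografts of both lines by 3.55-fold or more, and Ctsh rose in WT allografts. Ctss, Ctsc, Ctsh and Ctso were all lower in null than in WT allografts, whereas Ctsk was higher. Ctsa, Ctsb, Ctsd, Ctsl and Ctsz differed by at most 1.85-fold in all 4 comparisons of 2 groups on the probe that represents each gene.

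**Figure D1:**
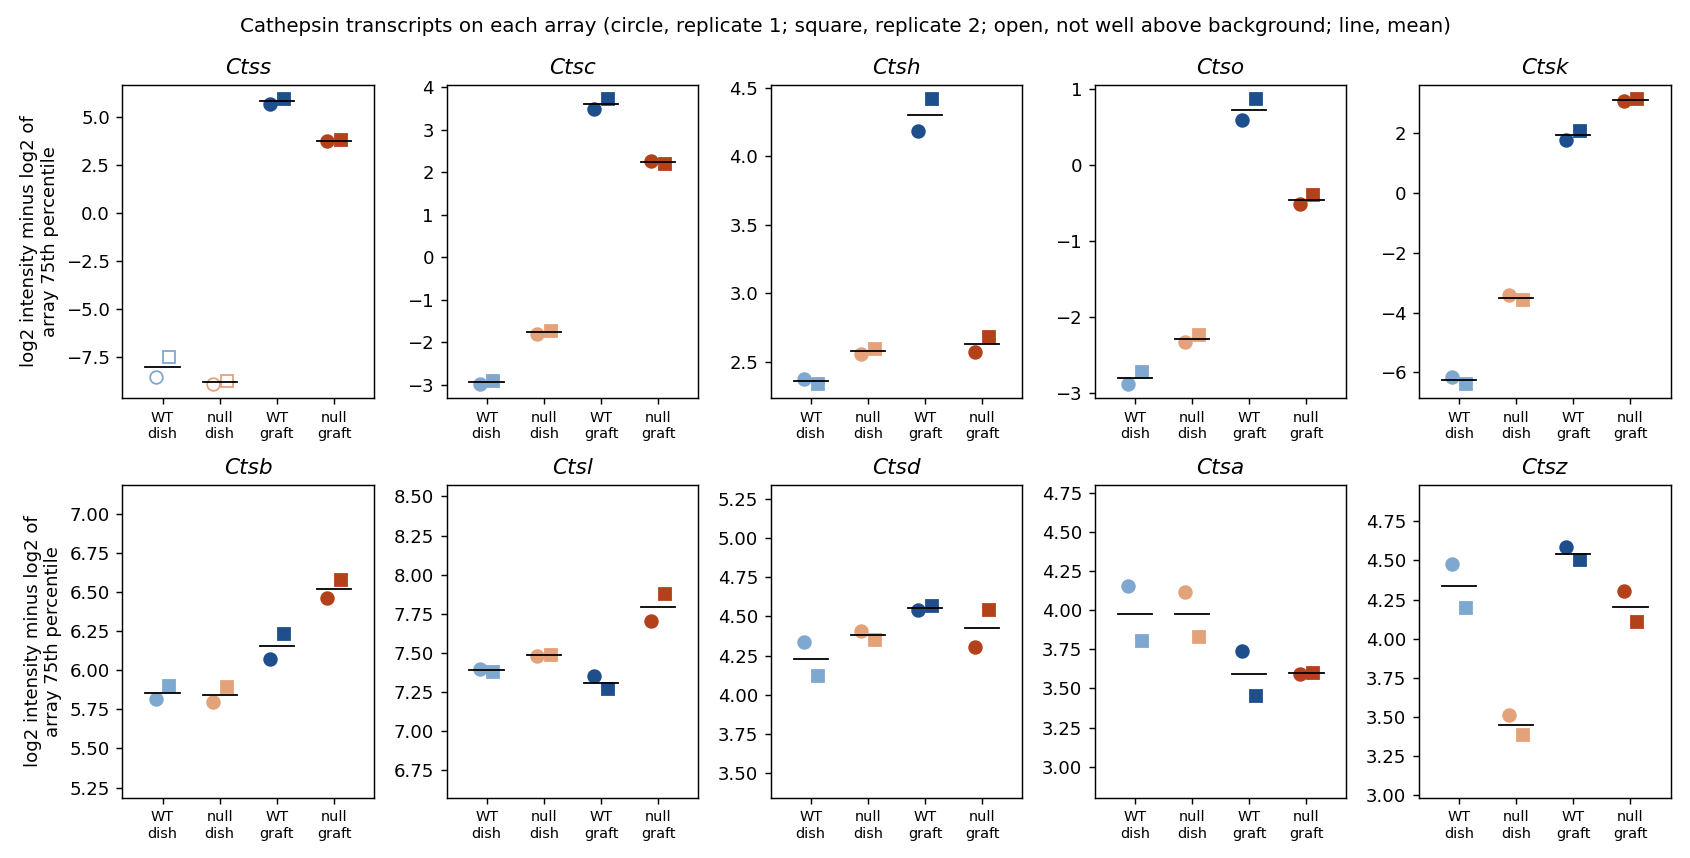
Level of each of the 10 cathepsins on each of the 8 arrays, as log2 intensity minus that of the array's 75th percentile (y axis), by group (x axis). Circles are replicate 1, squares replicate 2, lines the group mean, and open symbols arrays on which the probe was not well above background. The axes differ between panels: Ctss spans from -8.90 to 5.94, while Ctsl stays between 7.27 and 7.88.

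Counts for the family are read against all targets. Called means an adjusted p (Benjamini-Hochberg) below 0.05 in 1 limma fit over all 22922 targets. Between the dishes of the 2 lines 3 cathepsins were called higher and 1 lower, against 11.4% of all targets higher, 9.78% lower and 21.1% called either way. Between Keap1 null and WT allografts 3 were higher and 4 lower, against 20.5%, 21.3% and 41.8%. From dish to allograft 6 rose in WT and 7 in the null line and none fell, where 35.8% of targets rose in each line, 32.2% and 29.1% fell, and 68.1% and 64.9% were called either way. With each array scaled by its median instead, 5 rose and 5 fell in WT and 4 rose and 4 fell in the null line, while that scaling moved the median change of all targets from -0.02 to -1.04 in WT and from 0.03 to -0.84 in the null line. The median change over the 10 members was 0.12 in dishes, -0.23 in allografts, 1.13 from dish to allograft in WT and 0.71 in the null line, beside medians over all targets of -0.05, 0.00, -0.02 and 0.03. Arrays that did not overlap between groups are given as a further count: 8 of 10 members between the lines in dishes (58.7% of all targets; the 8 include Ctss, whose dish signal was not well above background, so that no order is read from it), 8 in allografts (70.2%), 10 between growths in WT (83.3%) and 8 in the null line (81.8%). The comparisons of lines and of growths share their arrays 2 by 2 and are not independent of each other. Counts for the other lists below are to be read beside the same shares of all targets.

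Ctss encodes cathepsin S, the protease that trims the invariant chain from MHC class II molecules in antigen-presenting cells, and it changed most of the 10. Its probe was not well above background on any of the 4 dish arrays, with levels of -8.55 and -7.48 in WT dishes and -8.90 and -8.73 in Keap1 null dishes. WT allografts read 5.71 and 5.94, and Keap1 null allografts read 3.77 and 3.80. The WT allografts were thus the highest, the null allografts next, and the dish arrays lay far below both, with no order read among values not above background. Set against a floor on the dish arrays, Ctss was at least 5728-fold higher in WT allografts and at least 1439-fold higher in Keap1 null allografts. The limma fit called both rises (adjusted p = 1.96e-06 and 3.89e-06), but it used the dish values below background and does not test the bounds. The floor on each dish array is the dimmest signal called well above background there, or the signal of Ctss if higher. The bounds hold for that floor and background handling only. With normexp background correction the rises were smaller than the bounds, at 9.79 in WT and 7.86 in the null line on the log2 scale. Between the allografts, Ctss was 4.12-fold lower in the null line (log2 fold change -2.04 ± 0.33, SE, n = 2 arrays a group, adjusted p = 0.0046), with -1.94 within slide 1 and -2.14 within slide 2.

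Ctsc encodes dipeptidyl peptidase I, which activates the serine proteases of cytotoxic lymphocytes, mast cells and neutrophils by removing an N-terminal dipeptide. Its levels were -2.98 and -2.91 (WT) and -1.80 and -1.73 (null) in dishes, and 3.49 and 3.72 (WT) and 2.26 and 2.20 (null) in allografts. No 2 groups overlapped, and the order of the lines in the dish was turned round in the tumour. Ctsc was 2.26-fold higher in Keap1 null dishes (1.18 ± 0.11, SE, n = 2, limma adjusted p = 0.00106) and 2.59-fold lower in Keap1 null allografts (-1.37 ± 0.11, adjusted p = 0.000245). From dish to allograft it rose 93.5-fold in WT and 15.9-fold in the null line.

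Ctsh, which encodes an aminopeptidase of the same papain fold, was already bright in dishes. It read 2.37 and 2.34 (WT) and 2.55 and 2.59 (null) in dishes, and 4.18 and 4.42 (WT) and 2.57 and 2.68 (null) in allografts. WT allografts were far above the other 3 groups, and null allografts overlapped null dishes. The rise from dish to allograft was 3.84-fold in WT (1.94 ± 0.11, SE, n = 2, limma adjusted p = 3.08e-05), and in the null line the change was 0.05 ± 0.11 (adjusted p = 0.704), or -0.82 with median scaling. Ctsh was 3.19-fold lower in null than in WT allografts (-1.67 ± 0.11, adjusted p = 0.000129), with 0.22 ± 0.11 in dishes (adjusted p = 0.233).

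Ctso encodes cathepsin O, a less studied cysteine protease of the family. Levels were -2.87 and -2.71 (WT) and -2.33 and -2.24 (null) in dishes, and 0.59 and 0.86 (WT) and -0.51 and -0.40 (null) in allografts. The groups had the same order as for Ctsc, with WT allografts highest and WT dishes lowest. Ctso rose 11.5-fold from dish to allograft in WT (adjusted p = 6.45e-06) and 3.55-fold in the null line (adjusted p = 7.74e-05), and it was 2.27-fold lower in null than in WT allografts (-1.18 ± 0.13, SE, n = 2, limma adjusted p = 0.000887). Its 1.43-fold higher level in Keap1 null dishes (adjusted p = 0.0398) was past the threshold in 5 of 16 other settings only, with adjusted p between 0.0112 and 0.205.

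RefSeq promoters (assembly GRCm38.p6, 250 bases before to 50 after the start of a gene) held 8 of the 10 members; Ctsb and Ctsh had no entry. They were searched on both strands for 4 short motifs: CACGTG, the core bound by TFEB and TFE3, TGACNNNGC, the core of the antioxidant response element that NRF2 binds, 2 copies of GAAA with any 2 bases between, the core of the interferon-stimulated response element (ISRE), and TTCNNNGAA, a STAT site. The stretches below are shown for the 2 cathepsins whose levels differed most between WT dishes and WT allografts among those lower in null allografts. They run 5′ to 3′ on the strand of the gene, with the motif in capitals.
Ctss, chr3:95526735-95526785 (+): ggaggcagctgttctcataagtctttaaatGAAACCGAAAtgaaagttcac
Ctsc, chr7:88277835-88277887 (+): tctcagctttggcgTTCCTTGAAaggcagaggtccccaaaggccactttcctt
The ISRE letters of Ctss begin at position -21, counted from 0 at the start site, and the TTCNNNGAA letters of Ctsc begin at position -236. Ctso holds the ISRE core as well, at positions 15 and 21 just after its start site. Among all 32851 promoters in the table, 3.44% hold the ISRE core and 8.3% hold TTCNNNGAA, and a match describes letters only.

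Genes of the antigen-processing pathway that cathepsin S serves were measured beside the cathepsins. All 9 tested MHC class II and processing genes were lower in Keap1 null allografts (median -2.37), 9 of 9 rose from dish to allograft in WT and 7 of 9 in the null line. Cd74, the invariant chain that Ctss cleaves, read -4.87 and -4.31 (WT) and -3.85 and -3.66 (null) in dishes, and 2.05 and 2.34 (WT) and -0.39 and 0.05 (null) in allografts. It was 5.16-fold lower in null than in WT allografts (limma adjusted p = 0.000723), beside 4.12-fold for Ctss. The MHC class II genes H2-DMb1 (-3.32), H2-DMa (-2.77), H2-Aa (-2.66) and H2-Ab1 (-2.50) had the largest falls on the log2 scale. Ifi30, a lysosomal thiol reductase that works with the cathepsins on disulfide-bonded antigens, was lower by -0.90.

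Ctss, Ctsc, Ctsh and Ctso were lower in null than in WT allografts, and so were most macrophage markers. The other comparisons differed. From dish to allograft in the null line 14 of 15 markers rose and 1 fell (median 8.10), while Ctsh was not called. Between dishes 2 markers were higher and 2 lower in the null line (median -0.10), while Ctsc was called higher. Of 15 tested markers 13 were lower and 1 (Cd14) higher in Keap1 null allografts, with a median of -2.39, and 0 were higher without WT allograft replicate 2 or either null allograft array. Their summed intensity, in units of the array's 75th percentile, was 97.2 to 109.7 in WT allografts, 25.7 to 26.2 in Keap1 null allografts, 2.78 to 3.19 in WT dishes and 2.42 to 2.52 in Keap1 null dishes. Of the 15, 9 (Adgre1, Aif1, C1qc, Ccr2, Cd163, Fcgr1, Itgam, Lyz2 and Msr1) were not well above background in either dish group. Adgre1, which encodes the macrophage surface protein F4/80, was 10.4-fold lower in null allografts (adjusted p = 5.67e-05). Cytotoxic lymphocyte markers had 3 of 10 lower and none higher already in null dishes (median -0.16). In null allografts 9 of 10 were lower and none higher (median -2.63), among them the granzyme genes Gzma (-3.86) and Gzmb (-2.42), whose products cathepsin C activates. Of 6 dendritic cell markers 2 were higher and 2 lower, with 1 higher without WT allograft replicate 2 or Keap1 null allograft replicate 1. Of 8 endothelial markers 3 were lower and none higher (median -0.41), beside 21.3% and 20.5% of all targets. This count was turned by 1 array. Without WT allograft replicate 1, 0 were lower and 2 higher, and 1 was lower without any 1 of the other 3 allograft arrays. The part of these cells in the levels of Ctss, Ctsc, Ctsh and Ctso was not tested.

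Ctsk encodes cathepsin K, the collagen-degrading protease for which osteoclasts are known and which fibroblasts can also make. It was the only member called higher in the Keap1 null line in both growths. Levels were -6.15 and -6.38 (WT) and -3.42 and -3.59 (null) in dishes, and 1.79 and 2.09 (WT) and 3.1 and 3.15 (null) in allografts. The 4 groups did not overlap. Ctsk was 6.79-fold higher in null than in WT dishes (2.76 ± 0.14, SE, n = 2, limma adjusted p = 0.000138) and 2.27-fold higher in null than in WT allografts (1.18 ± 0.14, adjusted p = 0.00138), with 1.31 within slide 1 and 1.06 within slide 2 for the latter.

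From dish to allograft Ctsk rose 295-fold in WT (adjusted p = 9.34e-07) and 98.8-fold in the null line (adjusted p = 2.76e-06). The WT dish signal was dim. Its Ctsk intensities were 15.2 on both arrays, next to 102.3 and 124.6 in null dishes, where the dimmest probe called well above background on any of the 8 arrays read 9.87 to 13.7. With normexp background correction the dish difference was 1.11 (adjusted p = 0.00266) and the WT rise 5.83, so the direction held and the fold did not. The rise in the null line was 5.87 with normexp (6.63 without it), so that the gap between the rises of the 2 lines was 0.04. The promoter of Ctsk held none of the 4 motifs.

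Osteoclast and fibroblast markers were measured beside Ctsk. In Keap1 null against WT allografts 7 of 8 were higher and none lower (median 1.74), and 2 of 8, Acp5 and Mmp9, were higher in null dishes. Acp5, the tartrate-resistant acid phosphatase, read -6.03 and -6.18 (WT) and -4.17 and -4.11 (null) in dishes, and 1.32 and 1.59 (WT) and 2.98 and 2.97 (null) in allografts. Its group order was that of Ctsk, with 3.92-fold higher levels in null dishes (limma adjusted p = 0.000234) and 2.88-fold higher levels in null allografts (adjusted p = 0.000248). Dcstamp and Ocstamp, which drive the fusion of osteoclast precursors, were 2.85 and 2.57 higher on the log2 scale in null allografts, and Nfatc1, the transcription factor that switches on Ctsk in osteoclasts, was 1.95 higher. The summed level of the list was 5.32 to 6.02 in WT allografts and 21.8 to 22.9 in null allografts, against 0.819 to 0.921 and 0.976 to 1.02 in the dishes of the 2 lines. Calcr, a defining osteoclast gene, was not well above background in either dish group, and its change between allografts was 0.43 (adjusted p = 0.241). Fibroblast markers had 6 of 10 higher and 1 lower in null dishes and 3 higher and 4 lower in null allografts, with summed levels of 352.5 to 385.1 (WT) and 451 to 457.9 (null) in dishes and 831.8 to 856.3 (WT) and 933.4 to 999.2 (null) in allografts. Dcn, the matrix proteoglycan decorin, had the group order of Ctsk, at -0.70 and -0.75 (WT) and 2.76 and 2.71 (null) in dishes and 5.50 and 5.47 (WT) and 7.47 and 7.45 (null) in allografts. Pdgfra, a growth factor receptor of fibroblasts, had it too, and was 2.92 higher in null dishes and 1.43 higher in null allografts on the log2 scale. Lower in null than in WT allografts were Pdgfrb (1.59 and 1.59 against 2.89 and 3.02) and Fn1 (3.59 and 3.32 against 4.82 and 4.43). So were Col3a1 (5.66 and 5.89 against 6.81 and 6.90) and Col1a2 (6.63 and 6.91 against 7.70 and 7.71). The part of osteoclast-like cells and of fibroblasts in the level of Ctsk was not tested.

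**Figure D2:**
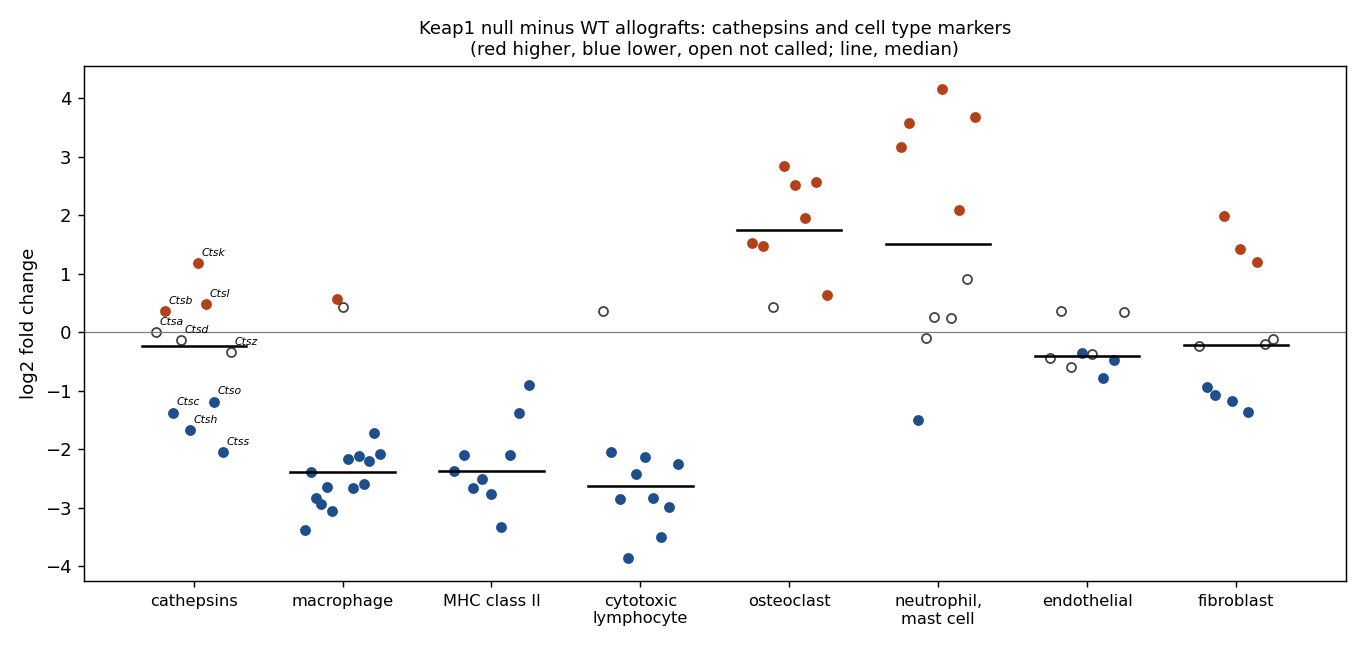
Log2 fold change between Keap1 null and WT allografts (y axis) of the 10 cathepsins and of the tested markers of 7 lists (x axis), 1 point a gene, with a line at the median of each list. Red points are called higher, blue points lower and open points not called. Ctss, Ctsc, Ctsh and Ctso lie on the side of the macrophage (median -2.39), MHC class II (-2.37) and cytotoxic lymphocyte markers (-2.63). The endothelial (-0.41) and fibroblast (-0.22) medians are below 0 as well. Ctsk lies on the side of the osteoclast markers (median 1.74) and of the neutrophil and mast cell markers (1.50).

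Ctsb, Ctsl, Ctsd, Ctsa and Ctsz were well above background on every array. Ctsb, a cysteine protease with both endopeptidase and carboxypeptidase activity, read 5.82 and 5.90 (WT) and 5.80 and 5.89 (null) in dishes, and 6.07 and 6.23 (WT) and 6.46 and 6.58 (null) in allografts. The dish groups overlapped and the 2 allograft groups did not. Ctsb was 1.29-fold higher in null than in WT allografts (0.37 ± 0.10, SE, n = 2, limma adjusted p = 0.0327), a call that 12 of 16 other settings lost, with adjusted p between 0.01 and 0.647. It was higher in allografts than in dishes by 0.29 in WT (adjusted p = 0.0438) and 0.67 in the null line (adjusted p = 0.00182), and with median scaling these differences turned to -0.73 and -0.19. A second probe of Ctsb gave larger rises, 1.48 in WT (adjusted p = 0.000466) and 1.94 in the null line (adjusted p = 0.000175), so the probes disagree on the size.

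Ctsl encodes cathepsin L, an endopeptidase that fibroblasts also secrete as a precursor. Its levels were 7.40 and 7.38 (WT) and 7.48 and 7.49 (null) in dishes, and 7.35 and 7.27 (WT) and 7.70 and 7.88 (null) in allografts. The null allografts were the highest group, and the other 3 lay between 7.27 and 7.49. Ctsl was 1.4-fold higher in null than in WT allografts (0.48 ± 0.10, SE, n = 2, limma adjusted p = 0.00953). That call was lost with quantile normalization (adjusted p = 0.0801), in the unscaled value table (adjusted p = 0.342) and without WT allograft replicate 2 (adjusted p = 0.0538). In the null line Ctsl was 1.24-fold higher in allografts than in dishes (adjusted p = 0.0309), a call lost in 8 other settings and turned to -0.56 with median scaling.

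Ctsz encodes cathepsin X, a carboxypeptidase. It read 4.48 and 4.20 (WT) and 3.51 and 3.38 (null) in dishes, and 4.58 and 4.51 (WT) and 4.30 and 4.10 (null) in allografts. The null dishes were the lowest group and overlapped no other. Ctsz was 1.85-fold lower in null than in WT dishes (-0.89 ± 0.13, SE, n = 2, limma adjusted p = 0.00678), a call lost without Keap1 null dish replicate 2 (adjusted p = 0.0531) and in the unscaled values (adjusted p = 0.0646). Its second probe gave -0.91 in dishes. In the null line Ctsz was 1.69-fold higher in allografts than in dishes (adjusted p = 0.00336), which with median scaling turned to -0.11. Between the allografts the change was -0.34 (adjusted p = 0.0906), called at 0.0222 with the replicate number as a block and at 0.0107 with quantile normalization (-0.58). The second probe was called lower there (-0.41, adjusted p = 0.0483).

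Ctsd, the aspartic protease cathepsin D, was called in none of the comparisons on the probe that represents it. Its levels were 4.34 and 4.12 (WT) and 4.41 and 4.35 (null) in dishes, and 4.54 and 4.57 (WT) and 4.31 and 4.54 (null) in allografts. The largest change, 0.33 from dish to allograft in WT, had an adjusted p of 0.0568, and a second probe gave 0.28 (adjusted p = 0.0327). It was called higher in 8 of 16 other settings, among them quantile normalization (0.93, adjusted p = 0.00124) and the unscaled values (0.71, adjusted p = 0.00901), and called lower with median scaling (-0.69, adjusted p = 0.00498).

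Ctsa, the serine carboxypeptidase that also protects beta-galactosidase and neuraminidase in the lysosome, was likewise not called. It read 4.15 and 3.81 (WT) and 4.12 and 3.83 (null) in dishes, and 3.74 and 3.45 (WT) and 3.59 and 3.60 (null) in allografts. Replicate 1 was above replicate 2 in 3 of the 4 groups. With the replicate number as a block, the change from dish to allograft was called lower in WT (-0.38, adjusted p = 0.026 against 0.0979 without it) and in the null line (-0.38, adjusted p = 0.0285 against 0.105). The mean of its 3 probes was called lower as well (-0.42 in WT, adjusted p = 0.00684, and -0.38 in the null line, adjusted p = 0.0102), as was median scaling (-1.40, adjusted p = 0.00101, and -1.24, adjusted p = 0.00199), while quantile normalization gave 0.14 in WT (adjusted p = 0.489).

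**Figure D3:**
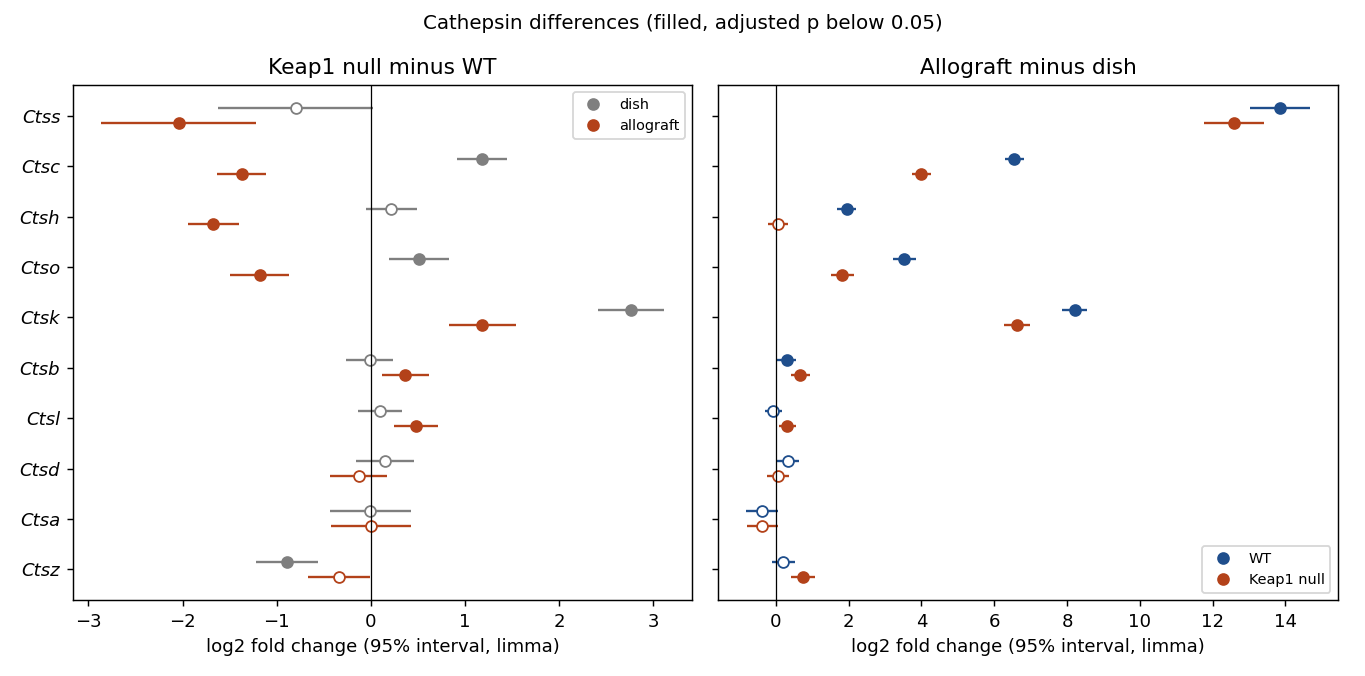
Log2 fold change (x axis) of each cathepsin (y axis) with its 95% interval from limma, between the lines on the left and between growths on the right. Filled points have an adjusted p below 0.05. Ctss, not well above background in dishes, is drawn at its fitted values, which are no measure of the fold, and the points of Ctsa, Ctsb, Ctsd, Ctsl and Ctsz on the right lie within 0.76 of 0 and turn sign for Ctsb, Ctsd and Ctsz with median scaling in both lines and for Ctsl in the null line.

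Promoter stretches are given for Ctsd, Ctsl and Ctsz, because CACGTG and the antioxidant response core are the motifs of factors that act on lysosomal genes or in cells without Keap1. Motif letters are in capitals and the sequence runs 5′ to 3′ on the strand of the gene.
Ctsd, chr7:142387836-142387955 (-): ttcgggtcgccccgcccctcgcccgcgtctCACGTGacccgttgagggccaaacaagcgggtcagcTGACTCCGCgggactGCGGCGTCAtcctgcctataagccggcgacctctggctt
Ctsl, chr13:64370721-64370770 (-): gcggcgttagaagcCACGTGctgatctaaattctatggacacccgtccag
Ctsz, chr2:174439133-174439201 (-): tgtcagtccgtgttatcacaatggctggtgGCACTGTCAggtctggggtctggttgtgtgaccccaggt
Ctsd holds CACGTG at positions -245 and -98 and TGACNNNGC at -62 on the printed strand and at -47 on the other. Ctsl holds CACGTG at -236, and Ctsz holds TGACNNNGC on the other strand at -132. The second of 2 Ctsa entries holds CACGTG at positions -12 and 5. CACGTG occurs in 7.15% of all promoters in the table and TGACNNNGC in 12.4%. Of the 2 members that hold the antioxidant response core, Ctsd was called in neither comparison of the lines and Ctsz was lower in null dishes. A match describes letters only, and any part of these motifs in the levels was not tested.

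The difference between the lines was compared across growths with the interaction term, the Keap1 null minus WT difference in allografts minus the same in dishes. The interaction was called for 4 members, which had a lower difference in allografts, and for 0 in the other direction, against 17% of targets lower, 15.8% higher and 32.9% either way. The interaction was -2.55 ± 0.15 (SE, n = 2 arrays a group) for Ctsc (limma adjusted p = 0.000199), -1.89 ± 0.15 for Ctsh (adjusted p = 0.000516), -1.69 ± 0.18 for Ctso (adjusted p = 0.00129) and -1.58 ± 0.20 for Ctsk (adjusted p = 0.00254). Ctsc and Ctso were thus higher in the null line in dishes and lower in it in allografts, while Ctsk was higher in both, by less in allografts. The dish difference of Ctso was past the threshold in 5 of 16 other settings only. With normexp background correction the value for Ctsk was 0.04 (adjusted p = 0.921), next to a dim signal in WT dishes. For Ctsb (0.38, adjusted p = 0.0999) and Ctsz (0.55, adjusted p = 0.0742) the interaction was called with the replicate number as a block (adjusted p = 0.0321 and 0.0186), and for Ctsb also with the mean of its probes (0.42, adjusted p = 0.0479) and with median scaling (0.53, adjusted p = 0.0405), while quantile normalization gave -0.0071. Ctss had -1.24 (adjusted p = 0.0982), measured from dish arrays that were not well above background.

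Other cathepsins, which serve particular cell types or the placenta, had 5 genes tested of 12 listed. Ctsw, made by cytotoxic lymphocytes, read -5.25 and -5.30 (WT) and -6.21 and -6.39 (null) in dishes, and -2.40 and -2.29 (WT) and -5.31 and -5.07 (null) in allografts. It was 7.2-fold lower in null than in WT allografts (limma adjusted p = 3.13e-05). Ctsf, a lysosomal cysteine protease, followed the order of Ctsc: it was 1.84-fold higher in null dishes (adjusted p = 0.00279) and 1.71-fold lower in null allografts (adjusted p = 0.00214). Ctsg, a granule protease of neutrophils and mast cells, rose in the allografts of both lines (4.18 in WT and 4.10 in the null line on the log2 scale) with -0.10 between them (adjusted p = 0.831). Cts7, of placenta, rose at least 6.42-fold in WT and at least 6.85-fold in the null line, and Ctsm was not called in any comparison.

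The cathepsin inhibitors had 4 of 14 tested genes higher and 3 lower in Keap1 null allografts, beside 20.5% and 21.3% of all targets. Only 1 was higher without either WT allograft array and 2 without Keap1 null allograft replicate 1, and 1 was lower without WT allograft replicate 1. With quantile normalization 1 was higher and with normexp 7. Cst3, the secreted cystatin C, read 4.10 and 4.13 (WT) and 4.23 and 4.14 (null) in dishes, and 4.93 and 5.10 (WT) and 5.97 and 5.52 (null) in allografts. It was 1.66-fold higher in null than in WT allografts (limma adjusted p = 0.0145). Cstb, the cytosolic inhibitor stefin B, was 1.37-fold lower there (adjusted p = 0.00775) and had the 2 lines together in dishes (0.00, adjusted p = 0.988). Cst7, cystatin F of immune cells, was not well above background in dishes and was lower in null allografts (-0.83, adjusted p = 0.0153), as was Cst6 (-0.64, adjusted p = 0.00973). Ctla2a and Ctla2b, whose products resemble a cathepsin propeptide, were 2.31 and 2.15 higher in null dishes and rose in the allografts of both lines by 3.73 or more. Stfa1, Stfa2, Stfa2l1 and Kng1 were not well above background in dishes and rose in null allografts, by at least 16.2-fold, 3.48-fold, 5.03-fold and 24.1-fold. The null allograft replicates of Stfa1 (-1.02 and -4.36) and Stfa2 (-3.99 and -5.83) lay far apart, and without replicate 1 these bounds were 5.11-fold and 1.83-fold. Between the allografts Stfa2l1 (1.01) and Kng1 (2.21) were called higher, while Stfa1 (2.90), Stfa2 (1.87) and Stfa3 (2.69) were not. Cst8 and Cst9 were lower in null than in WT dishes, by at least 4.28-fold and 3.46-fold, and were not well above background in either allograft group, and Cst13 was called in no comparison.

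Genes that sort and activate cathepsins had 5 of 18 higher and 3 lower in null allografts (7 and 6 with the replicate number as a block). Over all targets 20.5% were higher and 21.3% lower. From dish to allograft 9 and 10 fell in WT and in the null line, beside 32.2% and 29.1% of all targets. The 5 became 2 without either WT allograft array or Keap1 null allograft replicate 1 and 3 without either null dish array, and the 3 lower became 1 without WT allograft replicate 1 or Keap1 null allograft replicate 1. The 10 became 5 without Keap1 null dish replicate 1 and 6 without Keap1 null dish replicate 2 or Keap1 null allograft replicate 1, and with median scaling the 9 became 16. Lgmn encodes legumain, which cleaves cathepsin precursors, and it rose in allografts and was lower in the null ones. It read 1.80 and 1.92 (WT) and 1.81 and 1.94 (null) in dishes, and 4.84 and 4.91 (WT) and 3.74 and 3.78 (null) in allografts. It was 2.17-fold lower in null than in WT allografts (limma adjusted p = 0.000345) after rises of 8.08-fold in WT and 3.7-fold in the null line. Sort1, a sorting receptor that can carry cathepsins to the lysosome, was higher in the null line in both growths (3.57-fold in dishes and 2.27-fold in allografts). Lrp1, a surface receptor that can take up secreted Ctsd precursor, was higher in the null line as well, by 1.79-fold and 3.07-fold. M6pr, a mannose 6-phosphate receptor, was called in no comparison.

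Other lysosomal enzymes did not share 1 direction. Of 33 tested hydrolases 8 were higher and 12 lower in null allografts (median 0.05), beside 20.5% and 21.3% of all targets. They ran from Gla, alpha-galactosidase A, at 1.96 to Ids, iduronate sulfatase, at -1.82. In dishes 4 were higher and 4 lower (median 0.00), of which no more than 1 was called in each direction without any 1 of the 4 dish arrays. From dish to allograft 15 rose and 7 fell in WT, but 3 rose and 23 fell with median scaling. In the null line 14 rose and 5 fell, 1 rose and 26 fell with median scaling, and 7 rose without Keap1 null dish replicate 2 and 9 without Keap1 null dish replicate 1 or Keap1 null allograft replicate 2. The 5 that fell became 2 without either null dish array or Keap1 null allograft replicate 1.

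The lysosomal membrane proteins and the V-ATPase, the pump that acidifies the lysosome, had 16 of 29 genes higher and 3 lower in Keap1 null allografts (median 0.33). The 16 became 10 without WT allograft replicate 1, 8 without WT allograft replicate 2 and 9 without Keap1 null allograft replicate 1, and 2 were higher in the unscaled value table. The 3 lower became 1 without any 1 of the 8 arrays. Atp6v0d2, the osteoclast form of a V-ATPase subunit, was 1.48 higher on the log2 scale and is also on the osteoclast list. Atp6ap2 was 1.14 higher and Cd63 0.81 higher, while Atp6v0a1 was lower (-0.58). From dish to allograft 22 of 29 fell in WT (median -0.73) and 13 in the null line (median -0.28; 25 with median scaling). In dishes 1 was higher and 5 were lower in the null line, with 0 higher without any 1 of the 4 dish arrays or either WT allograft array and 2 or 3 lower without any 1 of the 4 dish arrays or either null allograft array.

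**Figure D4:**
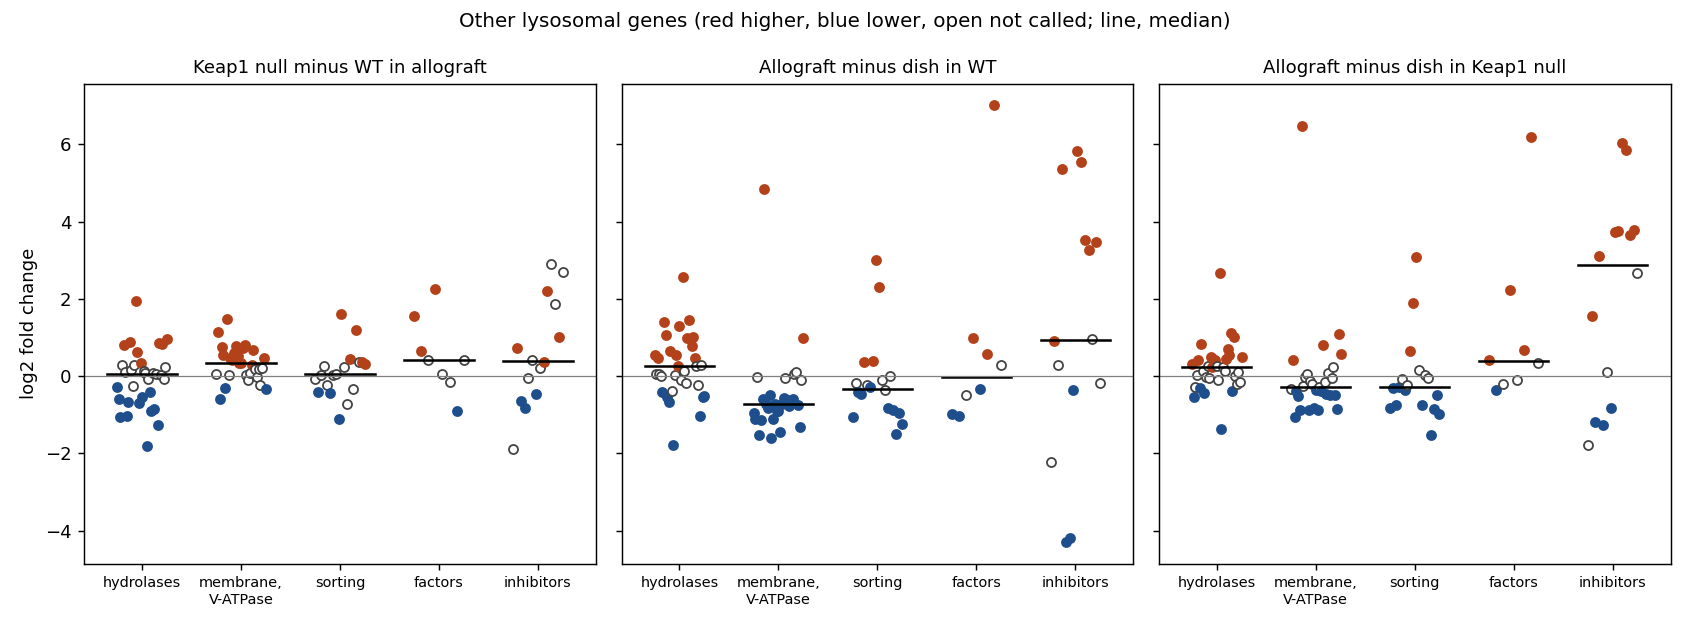
Log2 fold change (y axis) of tested genes of 5 lists of lysosomal genes (x axis) in 3 comparisons, with a line at the list's median. Red points are called higher, blue lower and open not called. In WT the membrane and V-ATPase genes lie mostly below 0 from dish to allograft (22 of 29 lower, 14 with quantile normalization and 7 in the unscaled value table), and the hydrolases have a median of 0.25 that median scaling turns to -0.77.

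Transcription factors of lysosomal genes differed among themselves. Mitf, a factor of the TFEB family that acts in osteoclasts and pigment cells, read -3.57 and -3.70 (WT) and -2.53 and -2.72 (null) in dishes, and -2.79 and -2.51 (WT) and -0.36 and -0.42 (null) in allografts. It was 2.01-fold higher in null dishes (limma adjusted p = 0.00433) and 4.79-fold higher in null allografts (adjusted p = 9.49e-05), the same directions as Ctsk. Tfeb (-0.26 and -0.16) and Tfe3 (-0.19 and 0.05) were not called between the lines. Flcn and Fnip1, partners in the complex that holds TFEB-family factors in the cytoplasm, were 1.56 and 0.64 higher in null allografts, and Fnip2 (0.42) and Zkscan3 (0.43), a repressor of lysosomal genes, were not called. Tfec, a family member of macrophages, was not well above background in dishes, rose at least 26.7-fold in WT and at least 14.7-fold in null allografts, and was lower in null than in WT allografts (-0.91, adjusted p = 0.0151), a call lost without WT allograft replicate 2 or Keap1 null allograft replicate 1.

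The genes whose levels over the 8 arrays were most like each cathepsin were found by Pearson correlation among 14845 targets with a symbol. The 8 arrays form 4 groups, so a high value mostly says that the group means lie in the same pattern. For Ctss the dish values that enter r were not well above background. Ctss was most like Rac2 (r = 0.999), Trem2 (0.999) and Mefv (0.999), Ctsc was most like Mrc1 (0.999), Samsn1 (0.999) and Egr2 (0.999), and Ctso was most like Cd74 (0.999), Phyhd1 (0.998) and Pon3 (0.998). Ctsh was most like Fbln7 (0.998), Trim21 (0.997) and Slc41a3 (0.997), and Ctsk was most like Adamts4 (0.999), Slc9b2 (0.999) and Bdh2 (0.999). The members with small changes had lower top values: Ctsb with Tmigd3 (0.993), Tdh (0.992) and Olfr482 (0.991), Ctsz with Rrbp1 (0.993), H2bc21 (0.984) and Itpkc (0.982), Ctsl with Kdm3a (0.992), Uhrf2 (0.984) and Plekhm3 (0.983), Ctsa with Ube2z (0.976), Traf3ip1 (0.974) and H4c1 (0.974), and Ctsd with S1pr4 (0.951), Galnt9 (0.928) and Syp (0.925).

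Among the members themselves, Ctsc and Ctso had the highest correlation over the 8 arrays (r = 0.992), followed by Ctsc and Ctss (0.977) and Ctso and Ctss (0.966). Ctsk correlated with Ctsc (0.953) and Ctss (0.931). The values for Ctss again include dish arrays on which it was not well above background. Ctsh and Ctsk, the pair of the first set that differed most, had a correlation of 0.559.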

How the data were processed

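A total of 8 mouse arrays, 2 in each of 4 groups, were analysed. The deposited scanner files hold spot intensities from Agilent Feature Extraction 10.7.3.1 with the background already subtracted, as the file headers state (per the file headers, the genome build is mm9). A deposited value table holds the same intensities, within 0.5%. With R 4.3.3 and limma 3.58.1, log2 processed intensity minus the array's 75th percentile was fitted as 4 group means over 8 arrays (4 residual and 1.83 prior degrees of freedom), with Benjamini-Hochberg adjustment over 22922 targets. Control spots and outlier flags were left out and repeated spots averaged. A probe was tested when well above background on both arrays of a group (30358 of 41174), and the probe with the highest mean represented its gene. Accessions were matched to RefSeq names (GRCm38.p6), giving 26690 probes a symbol and leaving 14484 without. The number of arrays limits the precision, and an exact permutation of 2 against 2 arrays cannot go below 0.33.

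Each slide held 1 array of every group, and replicate numbers followed the slides per the file headers. Deviations of same-numbered arrays from their group means correlated at 0.247 to 0.428 in all 6 pairs of groups, so the replicate block is a paired fit. The fit of 4 group means, which gave the p-values unless stated otherwise, leaves this pairing out. The scripts were tested on simulated data. The members, the lists of other lysosomal genes and the marker lists were chosen with earlier results of these data known. Named are all members, Keap1, Nfe2l2, the 3 genes most like each member, all tested genes of the cathepsin, inhibitor and transcription factor lists, and up to 4 called genes with the largest change per list and comparison. Cd14, Calcr, M6pr, Ifi30 and Atp6v0a1 were named, and the allograft levels of Pdgfrb, Fn1, Col3a1 and Col1a2 given, after their values were seen. Alternatives were 3 other scalings, normexp, 2 filters on dim probes, the mean of probes, the replicate block and each array left out.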

Additional observations from a re-analysis of the deposited data

Results flagged for a closer look

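For 4 cathepsins the difference between the Keap1 null and WT lines in allografts was not the same as in dishes, by a test of the difference itself (the interaction in the limma fit over all 8 arrays). Ctsc had an interaction of -2.55: it was higher in the null line on both dish arrays and lower on both allograft arrays. Ctso had -1.69, with the same turn of direction, but its dish difference was past the threshold in 5 of 16 other settings only. Ctsh had -1.89, with the fall in null allografts called and the dish difference not. Ctsk had -1.58 and was higher in the null line in both growths, by less in allografts. The interaction lay between -2.91 and -2.31 for Ctsc, between -2.25 and -1.74 for Ctsh and between -2.05 and -1.42 for Ctso over 16 other settings, and between -1.93 and 0.04 for Ctsk.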

How the results depend on the processing

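Over 795 values of the 10 cathepsins under 16 other settings (15 for Ctss), 685 kept direction and side of the threshold and 39 turned sign. Of the rest 45 lost the call and 26 gained one. Some of the 39 that turned sign lost or gained a call as well. The cause was not tested. The calls of Ctsc, Ctsh (WT growth and allografts), Ctso (growth and allografts), Ctsk and Ctss (growth and allografts) were kept in every setting run, except the interaction of Ctsk. With median scaling 10 cathepsins were called from dish to allograft in WT (6 otherwise), and values turned to -0.0083 (Ctsd) and -0.0635 (Ctsl) between dishes, to -0.0044 (Ctsa) between allografts, to -0.73 (Ctsb), -0.69 (Ctsd) and -0.81 (Ctsz) for growth in WT and to -0.19 (Ctsb), -0.82 (Ctsd), -0.82 (Ctsh), -0.56 (Ctsl) and -0.11 (Ctsz) for growth in the null line. All targets called for growth in WT went from 15600 to 19301 with median scaling. The share of calls that were higher moved from 53.7% to 37.3% in dishes, 52.7% to 25.9% for growth in WT and 55.2% to 27.3% in the null line. With quantile normalization values turned to 0.10 (Ctsa) and 0.10 (Ctsb) between dishes, -0.14 (Ctsa) between allografts, 0.14 (Ctsa) and 0.53 (Ctsl) for growth in WT, and -0.24 (Ctsa) and -0.0071 (Ctsb) for the interaction. With normexp on median signals, an alternative chosen after seeing the data in place of normexp on mean signals, which was not run because the files used here have no such column, they turned to 0.0197 (Ctsa) and 0.0232 (Ctsb) between dishes and to -0.006 (Ctsa) and 0.0382 (Ctsk) for the interaction, and 2844 targets were called between dishes (4843 otherwise). From the unscaled values, 2 cathepsins (4 otherwise) and 2620 targets were called between dishes, the share of higher calls was 76.4% there, 30.5% between allografts (49% otherwise), 78.5% for growth in WT and 23.3% for the interaction (48.2% otherwise), and values turned to 0.12 (Ctsa) and 0.12 (Ctsb) between dishes, -0.23 (Ctsa) between allografts, 0.31 (Ctsl) for growth in WT and -0.35 (Ctsa) for the interaction. The mean of all probes gave 0.13 (Ctsa) between dishes and called Ctsa lower for growth in both lines, Ctsd higher for growth in WT and the interaction of Ctsb.

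With single arrays left out, 2 (without Keap1 null dish replicate 2) to 4 cathepsins and 2371 to 4451 targets were called between dishes, where 2924 were called without WT dish replicate 1, 3206 without WT dish replicate 2, 2371 without Keap1 null dish replicate 1 and 2373 without Keap1 null dish replicate 2. Ctsa ran from -0.18 to 0.17 between dishes, from -0.14 to 0.14 between allografts and from -0.17 to 0.18 for the interaction, Ctsb from -0.0625 to 0.0369 between dishes, and Ctsd from -0.0707 to 0.1652 and Ctsh from -0.0015 to 0.10 for growth in the null line. Without WT dish replicate 1, Ctss was called between dishes (adjusted p = 0.0085). The replicate block called 4 and 8 cathepsins between the lines in dishes and allografts. It called 7 and 8 for growth in WT and the null line and 6 for the interaction (4 otherwise). The calls gained were Ctsz in allografts, Ctsa for growth, and Ctsb and Ctsz for the interaction, and no other call of a cathepsin changed. It also called more of all targets, 6517 between dishes and 11419 between allografts (4843 and 9575 otherwise). For growth in WT and the null line these were 17072 and 16487 (15600 and 14875 otherwise), and for the interaction 9380 (7530 otherwise). Hydrolases called lower in null dishes went from 4 to 8. The limits are 2 arrays a group, 1 line a genotype, and signal at or near background for Ctss in dishes and for Ctsk in WT dishes.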

Other observations

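Genes of granule proteases, some of which are activated by dipeptidyl peptidase I, the product of Ctsc, did not move as 1 group in the tumours. The mast cell genes Mcpt4 (4.15), Tpsb2 (3.68), Cpa3 (3.58) and Cma1 (3.17) were higher in Keap1 null than in WT allografts on the log2 scale, and Gzma (-3.86) and Gzmb (-2.42) of cytotoxic lymphocytes were lower, while Ctsc itself was lower (-1.37). Of these, Cpa3 encodes a metalloprotease that does not depend on Ctsc, and how far each of the other mast cell products depends on it was not tested. Of 10 tested neutrophil and mast cell markers 5 were higher and 1 lower in null allografts (median 1.50), and their summed level was 3.23 to 3.25 in WT allografts and 12.0 to 16.2 in null allografts.

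Fibroblast markers also differed between the lines. In dishes 6 of 10 were higher and 1 lower in the null line, with Dcn (3.46), Thy1 (3.07), Pdgfra (2.92) and Col3a1 (2.88) the largest changes, and in allografts 3 were higher and 4 lower. Nfe2l2 was 0.60 higher in null than in WT allografts (limma adjusted p = 0.00529) and not called in dishes (0.07, adjusted p = 0.743).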
